A study of Mus musculus with 2 samples.

Results

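Regulatory T cells (Tregs) were picked out of single-cell RNA sequencing of whole mouse skin tumours by their transcripts. Members were chosen by readings from each cell barcode: at least 500 genes and at most 15% mitochondrial UMIs, at least 2 UMIs (counted RNA molecules) of the CD3 chains Cd3e, Cd3d and Cd3g of the T cell receptor together, at least 1 UMI of Foxp3, and no UMI of Cd8a or Cd8b1. Of 29006 barcodes that passed the limits on genes and mitochondrial UMIs, 149 met the whole rule, 34 in the Eed iKO-D library and 115 in the Ctrl-D library. Foxp3, the CD3 chains and the absence of Cd8 transcripts therefore describe how the cells were found and are not results.

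Tregs are CD4 T cells that hold other immune cells in check, and the transcription factor Foxp3 (GRCm38 chrX:7573644-7595245, GENCODE vM21 annotation) sets and keeps their programme. They capture interleukin 2 through the high-affinity receptor chain Il2ra, strip costimulatory ligands from dendritic cells through Ctla4, and release or activate suppressive cytokines. In skin and in tumours they often carry an activated, tissue-adapted set of receptors and growth factors, such as Icos, Tnfrsf4, Il1rl1 and Areg.

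The Eed iKO-D tumours came from mice of genotype K14CrERT2;Eed flox/flox that received 4-hydroxytamoxifen (20 mg/ml on 4 days from postnatal day 50) and then the carcinogen DMBA weekly for up to 20 weeks. The Ctrl-D tumours came from Eed flox/flox mice given ethanol in place of tamoxifen, with the same DMBA. All mice were 5 months old, all tumours were from the dorsal skin, and both groups carry the floxed allele. Cre recombinase was driven by the keratin 14 promoter, which is active in keratinocytes and not in T cells, so the deletion is aimed at cells around the Tregs. Genotype and tamoxifen differ together between the groups and cannot be told apart. Each group is 1 library, the number of animals pooled is not given, and no test between the groups is possible. Counts of cells with a UMI carry no correction for depth unless the cells are said to be thinned. Every interval below is a 95% counting interval of that 1 library and says nothing of animals. Levels are CPM, a gene's UMIs per 1000000 UMIs, summed over all Tregs of a library, and genes are called apart at 2-fold.

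The labels call the sequenced cells epidermal cancer cells, and the libraries also held fibroblasts, macrophages, neutrophils and T cells. The libraries held 22259 barcodes in Eed iKO-D and 8039 in Ctrl-D, of which 21484 and 7522 were kept. The Tregs summed to 342521 UMIs in Eed iKO-D and 710016 UMIs in Ctrl-D. An Eed iKO-D Treg had a median of 7173.5 UMIs (2691 to 33792) and 2649 genes, against 3841 UMIs (950 to 29010) and 1737 genes for a Ctrl-D Treg. The libraries shared 49 barcode sequences, none of them a Treg. Both libraries mix cells with Xist and cells with Y-linked transcripts. Low-UMI barcodes were many in Eed iKO-D: 7079 kept barcodes without CD3 or Ptprc had under 2500 UMIs, and the noncoding gene Gm42418 made up 43.0% of their UMIs, against 344 barcodes and 3.40% in Ctrl-D. Whether they hold free RNA was not tested. Keratinocyte and fibroblast markers stood in Tregs at a median of 24.5% of their CPM in these barcodes in Eed iKO-D (19 genes) and 48.4% in Ctrl-D (17 genes). Within Tregs Gm42418 was 13.4% of UMIs in Eed iKO-D and 0.573% in Ctrl-D.

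The defining markers were present in the cells that the rule found. Ctla4 was detected in 31 of 34 Eed iKO-D Tregs and 103 of 115 Ctrl-D Tregs, and Icos, an inducible costimulatory receptor, in 32 and 109. Cd4 itself was detected in 28 of the 34 (82.4%) and 53 of the 115 (46.1%) and the Eed iKO-D cells were the deeper ones. Ptprc, the leukocyte marker CD45, was present in 32 of 34 and 107 of 115. Foxp3 was thin: 8 Eed iKO-D and 54 Ctrl-D Tregs entered on a single UMI, while 13 and 9 had 4 or more, and the highest counts were 8 and 7. The CD3 threshold was met exactly, at 2 UMIs, by 3 and 6 Tregs. Just outside it, 4 barcodes in each library had Foxp3 with 1 CD3 UMI, and 24 in Eed iKO-D and 15 in Ctrl-D had Foxp3 with none. A further 22 Ctrl-D barcodes, and 0 in Eed iKO-D, had Foxp3 and CD3 together with a Cd8 UMI. In keratinocytes, which should lack it, Foxp3 was found in 0.104% of Eed iKO-D barcodes (median 2772 UMIs) and 0.204% of Ctrl-D barcodes (median 16661.5 UMIs).

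**Figure D1:**
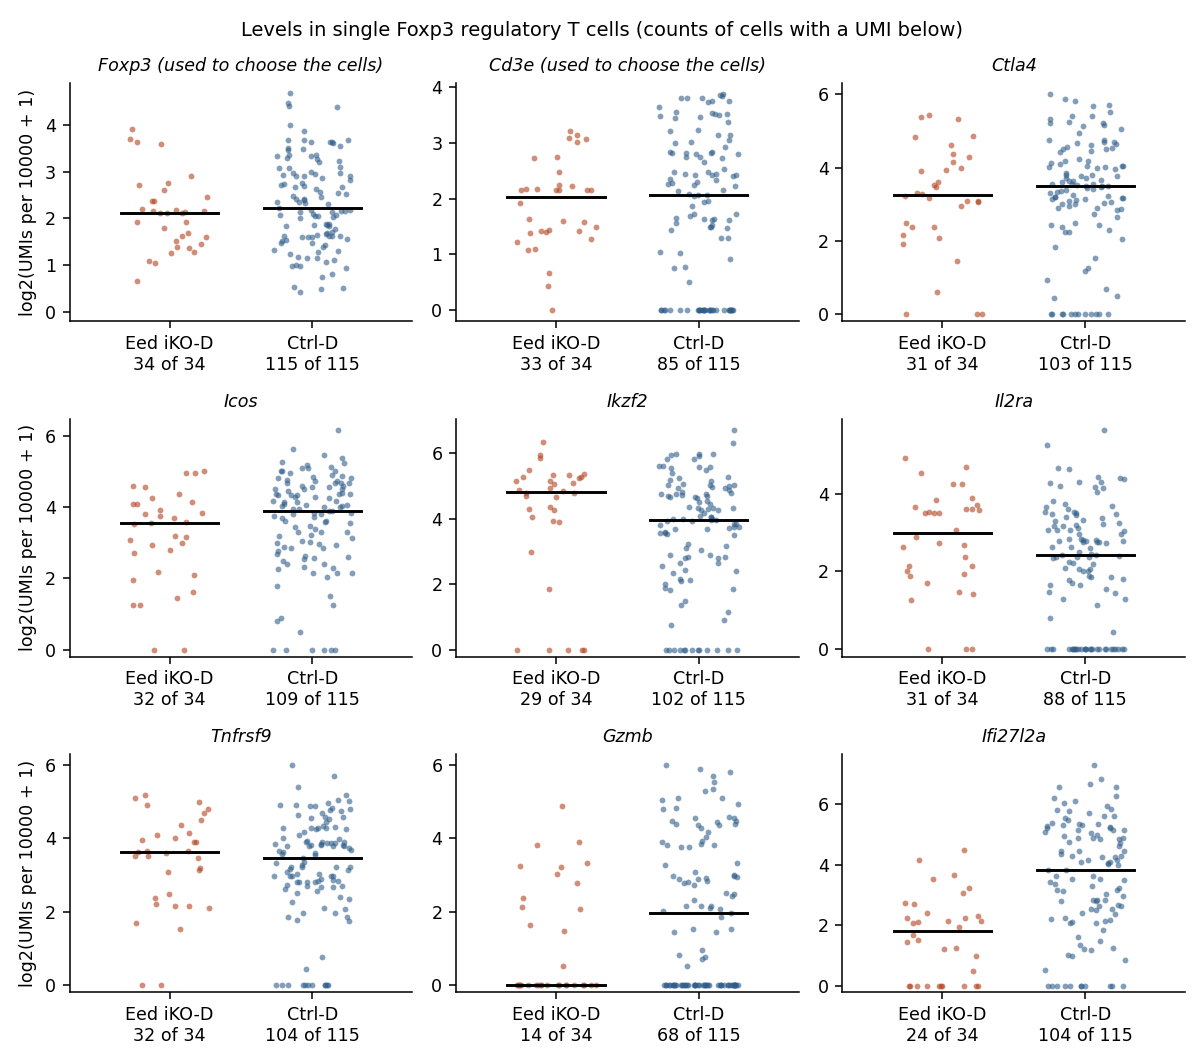
Each point is 1 Treg and its height is the level of the gene named above the panel, as log2 of UMIs per 10000 plus 1; Eed iKO-D stands left of Ctrl-D the black bar is the median, and the number of cells with a UMI is printed under each. Ctla4, Icos and Ikzf2 were detected in most Tregs of both libraries, and Foxp3 and Cd3e were used to choose the cells.

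Other cell types left traces in the Tregs, and their part in the results was not tested. Of 12 keratinocyte markers all were detected in both libraries, summing to 5062 CPM in Eed iKO-D Tregs and 9432 CPM in Ctrl-D Tregs, where the keratinocytes themselves had 29382 and 43435 CPM. The 7 fibroblast markers summed to 1571 and 737 CPM, against 52055 and 41368 CPM in fibroblasts. The 10 macrophage markers summed to 4052 CPM in Eed iKO-D and 645 CPM in Ctrl-D, with 4 of them at 0 in Ctrl-D, and 1 Eed iKO-D Treg barcode carried 3 or more C1q UMIs. Markers of B cells summed to 14.6 and 4.23 CPM and those of mast cells to 2.92 and 0 CPM. At least 10 collagen UMIs were present in 16 of 34 Eed iKO-D and 2 of 115 Ctrl-D Tregs, and at least 20 UMIs of Krt5 and Krt14, the bound used for keratinocytes, in 22 and 11.

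How large a part of the T cells the Tregs made up depended on which barcodes counted as T cells. Among all barcodes with at least 2 CD3 UMIs, Tregs were 34 of 568 in Eed iKO-D (5.99%, Clopper-Pearson interval 4.18% to 8.26%) and 115 of 600 in Ctrl-D (19.2%, 16.1% to 22.5%). In Eed iKO-D, however, 420 of those 568 barcodes had Cd3e without Cd3d or Cd3g, and 403 of the 420 carried at least 10 collagen UMIs, against 128 of 600 and 5 of the 128 in Ctrl-D. When Ptprc and Cd3d or Cd3g were also required, Tregs were 32 of 132 in Eed iKO-D (24.2%, 17.2% to 32.5%) and 107 of 425 in Ctrl-D (25.2%, 21.1% to 29.6%), and the intervals overlapped. The difference between the libraries was seen with the first denominator and not with the second.

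Set against the other T cell classes with the same requirement, Tregs did not stand in the same ratio to each. There were 213 Tregs per 100 CD8 T cells in Eed iKO-D (32 to 15 cells) and 95.5 in Ctrl-D (107 to 112). Per 100 Foxp3-negative CD4 T cells there were 86.5 Tregs in Eed iKO-D (32 to 37) and 195 in Ctrl-D (107 to 55). Against gamma-delta T cells there were 291 per 100 in Eed iKO-D (32 to 11) and 173 in Ctrl-D (107 to 62). Tregs thus outnumbered CD8 T cells in Eed iKO-D and Foxp3-negative CD4 T cells in Ctrl-D, while in each case the counts of the other library lay close together. Of all Ptprc barcodes, Tregs were 0.873% (32 of 3664) in Eed iKO-D and 13.8% (107 of 778) in Ctrl-D.

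**Figure D2:**
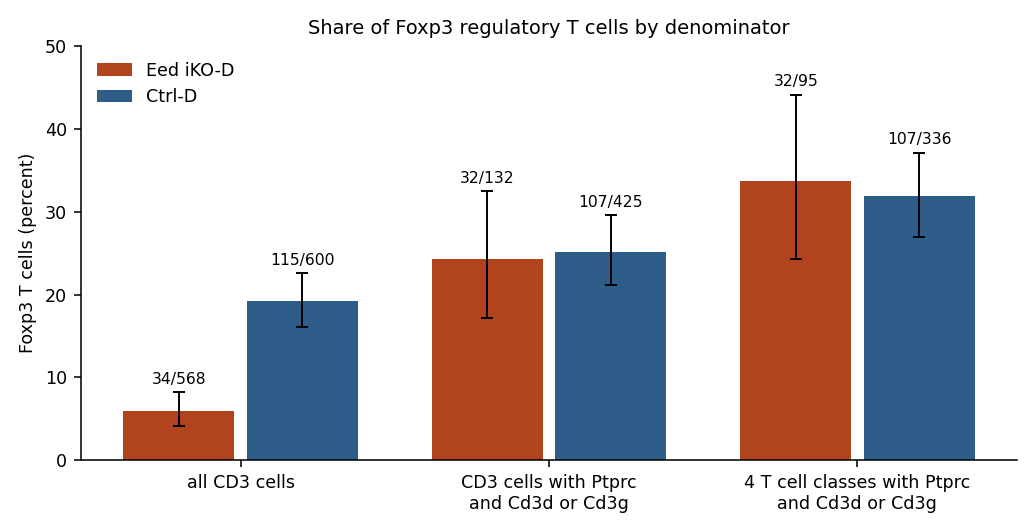
Bars give Tregs as a percent of 3 denominators in Eed iKO-D (left of each pair) and Ctrl-D (right), with exact 95% Clopper-Pearson intervals and the counts above. The bars differ among all CD3 cells, at 5.99% and 19.2%, and lie at 24.2% and 25.2% once Ptprc and Cd3d or Cd3g are required.

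To describe what set Tregs apart from their closest neighbours, they were compared within each library with CD4 T cells that had no Foxp3 UMI (46 cells in Eed iKO-D, 61 in Ctrl-D). A Treg whose Foxp3 went uncounted falls into this class. Foxp3-negative CD4 T cells had a median of 10907.5 UMIs in Eed iKO-D and 3298 UMIs in Ctrl-D. Whether missed Tregs were more frequent in 1 library, and their part in the values of this class, was not tested. Of 6047 genes measured, 126 (2.08%) were at least 2-fold higher in Tregs in both libraries and 92 (1.52%) at least 2-fold lower in both. Since some CD4 barcodes of Eed iKO-D carried fibroblast RNA, each fold is also given for cells with Ptprc and Cd3d or Cd3g, here called strict cells.

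Ikzf2, which encodes Helios, a zinc finger partner of Foxp3 (chr1:69531214-69687245), averaged 2563 CPM in Tregs and 87.2 CPM in Foxp3-negative CD4 T cells of Eed iKO-D, a 29.4-fold difference (interval 23 to 38.1). In Ctrl-D it averaged 1428 and 373 CPM, a 3.83-fold difference (3.20 to 4.61). Strict cells gave 19.9-fold and 3.79-fold. The UMIs of Ikzf2 per Treg had a lowest, median and highest value of 0, 22.5 and 87 in Eed iKO-D, against 0, 6 and 72 in Ctrl-D, so that cells with none and cells with many were found in both.

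Il2ra, the receptor chain that gives Tregs first call on interleukin 2 (chr2:11642807-11693193), averaged 876 CPM in Tregs against 124 CPM in Foxp3-negative CD4 T cells of Eed iKO-D (7.07-fold, 5.61 to 8.98). In Ctrl-D the values were 525 and 201 CPM (2.61-fold, 2.03 to 3.40). Its UMIs per cell ran over 0, 6 and 42 in Eed iKO-D and 0, 2 and 55 in Ctrl-D as lowest, median and highest, and the libraries overlapped over nearly the whole range.

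Penk, the gene of the opioid precursor proenkephalin (chr4:4133531-4138819), came first when genes were ranked by the smaller of their 2 log2 ratios. It averaged 266 CPM in Tregs and 15.2 CPM in Foxp3-negative CD4 T cells of Eed iKO-D (17.5-fold, 9.56 to 35.1), and 223 and 10.9 CPM in Ctrl-D (20.4-fold, 7.83 to 76.0). It came from a minority of cells, 11 of 34 Tregs in Eed iKO-D and 22 of 115 in Ctrl-D. Strict cells gave 13.1-fold and 22-fold.

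Gzmb, the protease granzyme B that cytotoxic lymphocytes and some Tregs use to kill target cells (chr14:56258838-56262260), averaged 259.8 CPM in Tregs and 96.0 CPM in Foxp3-negative CD4 T cells of Eed iKO-D. In Ctrl-D it averaged 593 and 166 CPM. The fold was 2.71 in Eed iKO-D and 3.57 in Ctrl-D, but 1.68 and 3.37 in strict cells, so the Eed iKO-D difference did not reach 2-fold there.

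The other genes named by the rule for the highest folds had varied roles. Ly75, the endocytic receptor DEC-205, was 10.5-fold higher in Tregs of Eed iKO-D and 5.44-fold higher in Tregs of Ctrl-D. Ccr2, a receptor for monocyte-attracting chemokines, was 3.62-fold and 2.94-fold higher. Itgb7, an integrin chain of tissue-homing lymphocytes, was 3.06-fold and 3.24-fold higher, and Dusp4, a phosphatase that acts on MAP kinases, 4.36-fold and 3.0-fold. The interferon-inducible GTPase gene Gbp7 was 6.44-fold and 3.27-fold higher. Ankrd55, Neb, Cmtm7, Glcci1, Lclat1 and Ptprcap, which codes for a CD45-associated protein, completed the 15, with folds from 3.50 to 14.6 in Eed iKO-D and from 2.61 to 3.70 in Ctrl-D. In strict cells 14 of the 15 genes, all but Gzmb, were at least 2-fold higher in both libraries as well.

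Genes lower in Tregs included ligands of helper T cells. Tnfsf11, which encodes RANKL, averaged 23.4 CPM in Tregs against 273 CPM in Foxp3-negative CD4 T cells of Eed iKO-D, and 25.4 against 218 CPM in Ctrl-D. Tnfsf8, the ligand of CD30, averaged 58.4 against 575 CPM in Eed iKO-D and 78.9 against 465 CPM in Ctrl-D. Both were low in Tregs of both libraries, and more so in strict cells, where Foxp3-negative CD4 T cells had 924 CPM of Tnfsf8 in Eed iKO-D and 478 CPM in Ctrl-D. Themis, a regulator of T cell receptor signalling, averaged 26.3 against 348 CPM in Eed iKO-D and 54.9 against 218 CPM in Ctrl-D, with 88.9% of its Eed iKO-D Treg UMIs in 1 cell. Scin, Parp8, Nav2 and the interferon-inducible Ifitm2 were also lower in both libraries. Ereg, the eighth gene named, kept this difference in strict cells of Ctrl-D (0.0479-fold) but not of Eed iKO-D (0.897-fold).

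**Figure D3:**
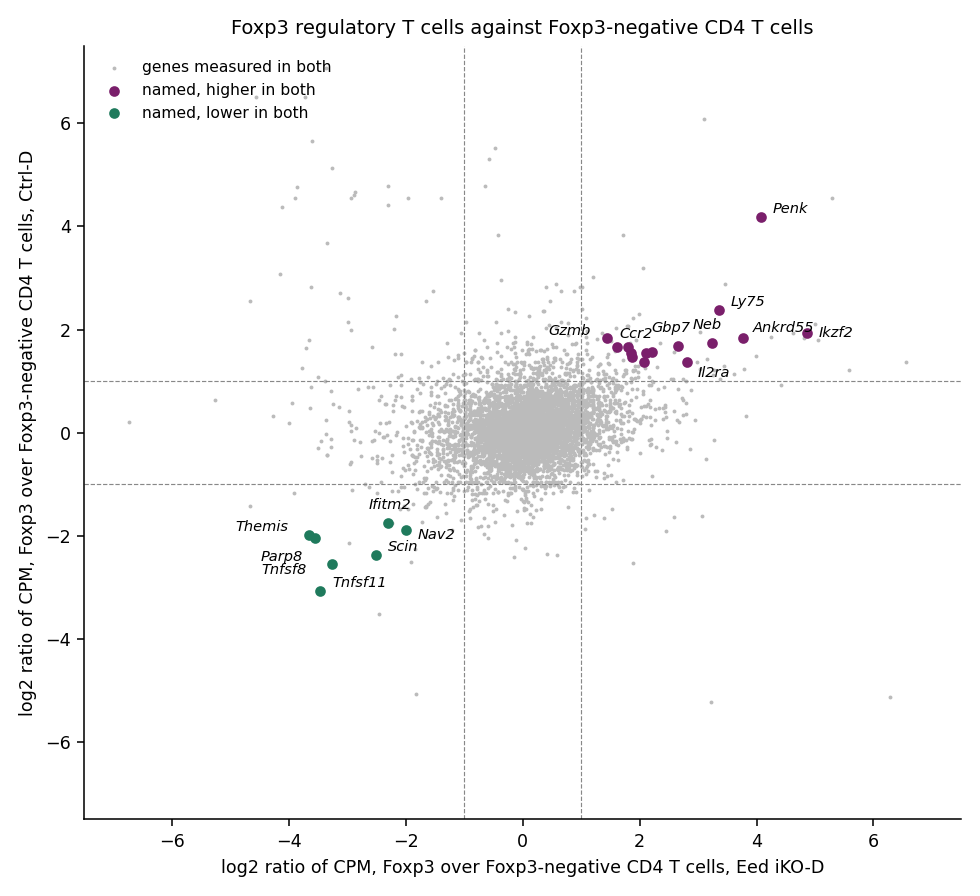
Each point is a gene, with its log2 ratio of CPM in Tregs over Foxp3-negative CD4 T cells in Eed iKO-D on the x axis and in Ctrl-D on the y axis; dashed lines mark 2-fold. Named genes higher in Tregs (upper right) include Penk, Ikzf2 and Il2ra, and named genes lower in Tregs (lower left) include Tnfsf11 and Tnfsf8.

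Gene lists were next set against all 6047 genes, of which 2.08% were at least 2-fold higher and 1.52% lower in both libraries. The lists were chosen with earlier results of these data known. Of 16 measured genes of the Treg core list, 8 were at least 2-fold higher than in Foxp3-negative CD4 T cells in both libraries and 0 lower, and the list's median log2 ratio was 1.87 in Eed iKO-D and 0.94 in Ctrl-D. Of 18 effector Treg genes 11 were higher and 0 lower (medians 1.93 and 1.05), and of 14 suppressive molecules 7 were higher and 0 lower (1.30 and 0.74). Over all 6047 genes the medians were 0.06 in Eed iKO-D and 0.07 in Ctrl-D. Of 14 TNF receptor and costimulation genes 6 were higher and 1 lower, and of 14 tissue repair genes 5 were higher and 0 lower. Of 13 resting T cell genes 0 were higher and 3 lower, and of 4 effector cytokines 0 were higher and 2 lower. Neither the 15 MHC class I genes nor the 35 cell cycle genes held any member 2-fold apart in the same direction in both libraries. The cell cycle median was -1.08 in Eed iKO-D and 0.23 in Ctrl-D, and Ccnb1, a mitotic cyclin gene, was 2-fold apart in opposite directions, at log2 ratios of -3.51 and 1.07. These lists overlap, since Ctla4, Il2ra and Icos stand in several of them.

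Not all members of the core list separated Tregs from their neighbours. Icos was at 979.9 CPM in strict Tregs and 968 CPM in strict Foxp3-negative CD4 T cells of Eed iKO-D, and at 1097 and 846 CPM in Ctrl-D. Ctla4, by contrast, was at 1238 and 339 CPM in Eed iKO-D and at 963 and 435 CPM in Ctrl-D. Icos levels of these classes thus lay close together, while Ctla4 was higher in Tregs of both libraries.

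The second comparison set Tregs of Eed iKO-D tumours against those of Ctrl-D tumours. Of 6675 genes that reached 20 UMIs over both libraries, 692 (10.4%) were at least 2-fold higher in Eed iKO-D and 796 (11.9%) at least 2-fold lower. Among genes within the free RNA limit, set out under processing below, 529 of 6051 (8.74%) were higher and 710 (11.7%) lower. The keratin genes Krt6b and Krt15 passed this limit, so it did not remove all genes that could come from other cells. The Eed iKO-D side is only 34 cells, and of the 692 higher genes 151 had over 50% of their Eed iKO-D UMIs in 1 barcode, as did 18 of the 796 lower genes on the Ctrl-D side. Values in strict Foxp3-negative CD4 and CD8 T cells stand beside the Treg values, so that differences shared by other T cells of a library can be seen. The median log2 ratio over all 6675 genes was 0.00. These shares and this median are the background for the gene lists below.

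The low-UMI barcodes of Eed iKO-D bear on these counts. Their profile, at 24.5% of UMIs, was subtracted from the Eed iKO-D sums alone. Ctrl-D sums, where the same marker ratio was 48.4%, were left as they were. Of 6376 genes then measured, 1017 were higher and 730 lower, and the median over all genes became 0.17. A gene absent from that profile moves up by construction, so the counts that follow are no separate evidence on these lists. Core Treg genes 2-fold higher then numbered 6 of 17 in place of 1, transcription factors 6 in place of 1, TNF receptor and costimulation genes 4 in place of 1, and homing genes 6 higher and 0 lower in place of 3 and 2. Ikzf2, Ikzf4, Il2ra, Tox, Klrg1 and Birc3, all under 2-fold below, had log2 ratios of 1.24, 1.36, 1.13, 1.39, 1.36 and 1.27. Gzmb, Cxcr6, Cxcr3 and Vim, all called lower below, had -0.79, -0.87, -0.81 and -0.82 and were not past 2-fold, and Fabp5, called higher, had 0.07.

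Most core Treg genes differed by less than 2-fold between the libraries. Of 17 measured core genes 1 was at least 2-fold higher in Eed iKO-D and 0 were lower, and their median log2 ratio was 0.17. Of all genes 10.4% were higher and 11.9% lower, so most genes of any kind were under 2-fold. Ctla4 (chr1:60887000-60915832) averaged 1203 CPM in Eed iKO-D and 969 CPM in Ctrl-D, a ratio of 1.24 (interval 1.10 to 1.40), and its UMIs per cell ran over 0, 7.5 and 44 in Eed iKO-D and 0, 5 and 37 in Ctrl-D. Icos (chr1:60977927-61000320) averaged 955 and 1096 CPM, a ratio of 0.871 (0.763 to 0.993). Neither reached the 2-fold bound.

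Ikzf2 was 1.79 times higher in Eed iKO-D Tregs (interval 1.64 to 1.97), under 2-fold, with a log2 ratio of 0.84. In other T cells its ratio ran the other way (the difference was not tested), at 132 CPM in Eed iKO-D and 379.9 CPM in Ctrl-D for strict Foxp3-negative CD4 T cells and 88.7 and 155 CPM for strict CD8 T cells. Taken per cell, Ikzf2 had a median of 27.2 UMIs per 10000 in Eed iKO-D Tregs and 14.6 in Ctrl-D Tregs. Its relative Ikzf4, which encodes the related factor Eos, averaged 146 and 74.6 CPM. Il2ra was 1.67 times higher (1.43 to 1.95) in Eed iKO-D Tregs and stood at 201 and 199 CPM in strict Foxp3-negative CD4 T cells. The 2-fold core gene was Nrp1, the receptor neuropilin 1, at 114 CPM in Eed iKO-D and 40.8 CPM in Ctrl-D (2.79-fold, 1.68 to 4.67).

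Receptors of the TNF family, which sustain Tregs in tissues, differed in direction. Of 15 measured genes of this list 1 was 2-fold higher in Eed iKO-D and 0 lower, against 10.4% and 11.9% of all genes. That gene, Tnfrsf8, which encodes CD30, was at 108 CPM in Eed iKO-D and 25.4 CPM in Ctrl-D (4.26-fold, 2.37 to 7.95) and was detected in 14 of 34 and 15 of 115 Tregs. With each cell thinned to 1000 UMIs it was found in 1 of 34 and 3 of 113. Tnfrsf4, or OX40, was at 628 and 1029.5 CPM (ratio 0.610, 0.521 to 0.711), and it was lower in Eed iKO-D also in strict Foxp3-negative CD4 T cells, at 274 and 492 CPM. Tnfrsf18, or GITR, was at 473 and 628 CPM, and Tnfrsf9, or 4-1BB, at 1153 and 955 CPM. The signalling genes Birc3 and Traf1 had ratios of 1.87 and 1.39. Cd27, a costimulatory receptor of less differentiated T cells, was at 75.9 CPM in Eed iKO-D and 152 CPM in Ctrl-D, a log2 ratio of -0.98 with 0.5 UMI added to each count, and so was not called.

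Suppressive molecules were split. Of 17 measured, 4 were 2-fold higher in Eed iKO-D and 1 lower, against 10.4% and 11.9% of all genes. Their median log2 ratio was 0.36. Itgb8 (chr12:119158022-119238802), the integrin chain that activates latent TGF-beta, averaged 333 CPM in Eed iKO-D Tregs and 161 CPM in Ctrl-D Tregs (2.07-fold, 1.58 to 2.71), with UMIs per cell of 0, 2 and 18 and 0, 0 and 10 as lowest, median and highest. It was present in 19 of 34 and 44 of 115 Tregs. Havcr2, the inhibitory receptor TIM-3, was at 155 and 66.2 CPM (2.34-fold, 1.55 to 3.54), with strict CD8 T cells at 339 and 145 CPM. Its share of cells did not keep this order at equal depth. With each cell thinned to 1000 UMIs, Havcr2 was found in 2 of 34 Eed iKO-D Tregs (5.88%, Clopper-Pearson interval 0.720% to 19.7%). In Ctrl-D it was found in 12 of 113 Tregs (10.6%, 5.61% to 17.8%), and the intervals overlapped. The other higher genes were Ebi3, a subunit of interleukin 35 (40.9 and 19.7 CPM, interval of the ratio 0.916 to 4.69), and Il1rn, the interleukin 1 receptor antagonist, with 80.0% of its Eed iKO-D UMIs in 1 cell. Tgfb1 was at 225 and 176 CPM and Il10 at 58.4 and 73.2 CPM, with intervals of the ratio of 0.949 to 1.71 and 0.451 to 1.36.

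Gzmb was the suppressive gene that was lower in Eed iKO-D Tregs. It averaged 259.8 CPM in Eed iKO-D and 593 CPM in Ctrl-D (ratio 0.438, 0.345 to 0.552) and was detected in 14 of 34 and 68 of 115 Tregs. After each cell was thinned to 1000 UMIs, the shares were 7 of 34 (20.6%, Clopper-Pearson interval 8.70% to 37.9%) in Eed iKO-D and 45 of 113 (39.8%, 30.7% to 49.5%) in Ctrl-D, and the intervals overlapped. In keratinocytes thinned the same way it was found in 0.05% and 0%. Strict CD8 T cells had the opposite order, a difference between classes that was not tested, with 701 CPM in Eed iKO-D (15 cells) and 291 CPM in Ctrl-D (112 cells), and strict Foxp3-negative CD4 T cells had 159 and 176 CPM.

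**Figure D4:**
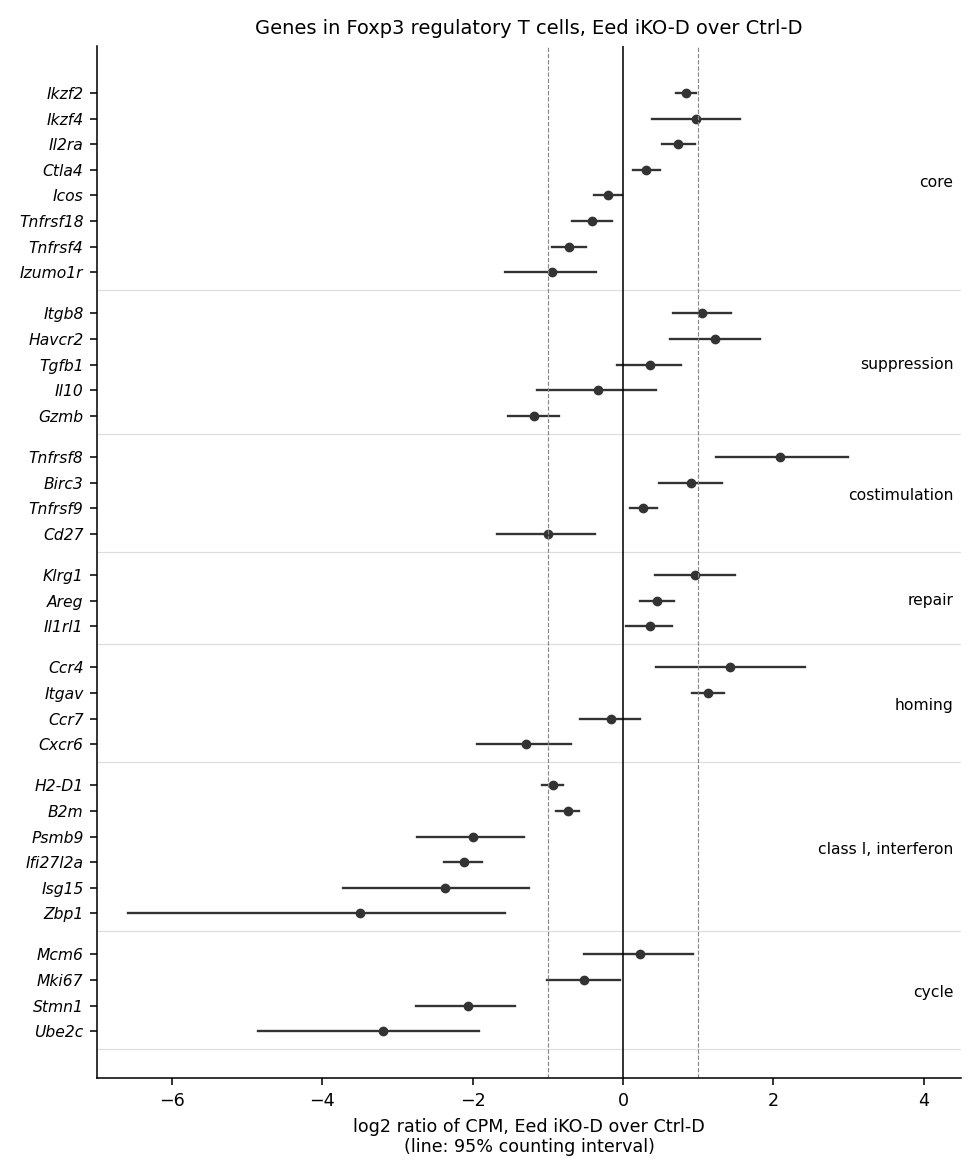
Log2 ratios of CPM in Tregs, Eed iKO-D over Ctrl-D, for genes of the groups described in the text, with 95% counting intervals; dashed lines mark 2-fold. Itgb8, Havcr2 and Tnfrsf8 lie right of 0 and Gzmb, Ifi27l2a and Ube2c left of it, with their whole intervals.

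Genes of tissue adaptation were detected in both libraries. Of 16 measured tissue repair genes 2 were 2-fold higher in Eed iKO-D and 0 lower, with a median of 0.39. The share higher was close to the 10.4% of all genes. Areg, the growth factor amphiregulin, was at 788 CPM in Eed iKO-D Tregs and 575 CPM in Ctrl-D Tregs (ratio 1.37, 1.17 to 1.60), while in strict Foxp3-negative CD4 T cells it was at 258 and 783 CPM. Keratinocytes of Eed iKO-D, at 723 CPM, had a level close to that of the Tregs, and the part of free RNA was not tested. Il1rl1, the receptor of interleukin 33, was at 426 and 334 CPM (ratio 1.28, 1.03 to 1.58). Klrg1, a receptor of terminally differentiated Tregs, was at 178 and 91.5 CPM and was found in 17 of 34 and 30 of 115 Tregs. With each cell thinned to 1000 UMIs, Klrg1 was found in 5 of 34 (14.7%) and 14 of 113 (12.4%). The 2 genes past 2-fold were Vegfa and Il1r1, and 69.2% and 52.0% of their Eed iKO-D UMIs came from 1 cell each.

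Areg and Il1rl1 were found together in 18 of 34 Eed iKO-D Tregs and 39 of 115 Ctrl-D Tregs. Areg without Il1rl1 was found in 8 and 25, Il1rl1 without Areg in 3 and 28, and neither in 5 and 23. All 17 Eed iKO-D Tregs with Klrg1, and 28 of 30 in Ctrl-D, also had Ikzf2. Tregs with Ikzf2 were deeper, with a median of 8743 UMIs against 5671 UMIs for those without in Eed iKO-D and 4122.5 against 3076 in Ctrl-D. For Klrg1 the medians with and without it were 7220 and 7127 UMIs in Eed iKO-D and 4728 and 3793 in Ctrl-D.

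Homing receptors and integrins gave 3 genes 2-fold higher and 2 lower of 20 measured, with a median of 0.03. These shares were near those of all genes, 10.4% higher and 11.9% lower. Itgav, the alpha V chain that pairs with Itgb8, was at 1071 CPM in Eed iKO-D Tregs and 489 CPM in Ctrl-D Tregs (2.19-fold, 1.89 to 2.55), in 33 of 34 and 94 of 115 cells. It was at 409 and 245 CPM in strict Foxp3-negative CD4 T cells and at 258 and 252 CPM in strict CD8 T cells. Ccr4, a skin-homing chemokine receptor, was at 64.2 and 23.9 CPM (2.68-fold, 1.36 to 5.38). Itga4 was at 114 and 7.04 CPM but rested on 6 and 2 cells. On the lower side stood Cxcr6, the receptor of the chemokine CXCL16, at 78.8 and 193 CPM (ratio 0.409, 0.260 to 0.621), and Cxcr3, at 11.7 and 29.6 CPM. Ccr7, which guides T cells to lymph nodes, was at 225 and 252 CPM, and Ccr8, a receptor typical of tumour Tregs, had 5 UMIs in each library.

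Most transcription factors differed by less than 2-fold. Of 30 measured, 1 was 2-fold higher in Eed iKO-D and 1 lower, against 10.4% and 11.9% of all genes, with a median of 0.22. The higher one was Lef1, a factor of resting and stem-like T cells, at 178 CPM in Eed iKO-D Tregs and 63.4 CPM in Ctrl-D Tregs (2.81-fold, 1.88 to 4.23). Tox, a factor of chronically stimulated T cells, was at 1515 and 761 CPM (1.99-fold, 1.76 to 2.25), with strict Foxp3-negative CD4 T cells at 425 and 553 CPM. Satb1, a chromatin organiser, was at 347 and 201 CPM. The lower one was Id3, with 82.4% of its Eed iKO-D UMIs in 1 cell, and its partner Id2 was at 374 and 652 CPM (ratio 0.573, 0.467 to 0.698), lower also in strict Foxp3-negative CD4 T cells (226 and 498 CPM). Gata3, Rora, Maf and Batf, factors of effector and tissue Tregs, had ratios of 0.882, 1.32, 1.17 and 1.09.

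Core Polycomb genes were at like levels in Tregs of both libraries. Eed (chr7:89954654-89980983), the subunit of Polycomb repressive complex 2 (PRC2) whose gene was floxed, was at 90.5 CPM in Eed iKO-D Tregs and 91.5 CPM in Ctrl-D Tregs (ratio 0.989, 0.623 to 1.54), and 3' counts do not show whether the floxed exons are present. Ezh2, the methyltransferase, had a ratio of 1.11 (0.728 to 1.67) and Suz12, the scaffold, of 1.16 (0.810 to 1.64). Of 11 measured genes of the PRC2 list the accessory gene Jarid2 was 2-fold higher, at 324 and 161 CPM (2.02-fold), and it was likewise at 488 and 247 CPM in strict Foxp3-negative CD4 T cells. That share of the list was near the 10.4% of all genes.

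Many interferon-responsive genes were lower in Eed iKO-D Tregs. Of 23 measured, 10 were at least 2-fold lower and 0 higher, against 11.9% and 10.4% of all genes, and the median log2 ratio was -0.90. Ifi27l2a (chr12:103442167-103443680), a small interferon-induced protein gene, was at 426 CPM in Eed iKO-D and 1855 CPM in Ctrl-D (ratio 0.230, 0.192 to 0.273). Its UMIs per cell ran over 0, 2 and 31 in Eed iKO-D and 0, 6 and 81 in Ctrl-D as lowest, median and highest, so the median was lower in Eed iKO-D although its cells were deeper. Isg15, an antiviral ubiquitin-like modifier, was at 20.4 and 106 CPM, and Zbp1, a sensor of nucleic acids, at 5.84 and 66.2 CPM. Igtp, an immunity-related GTPase, was at 8.76 and 60.6 CPM. Gbp5, a guanylate-binding protein gene, was not lower, at 102 and 71.8 CPM.

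Antigen presentation genes had a median below that of all genes, but few were past 2-fold. Of 15 MHC class I genes 2 were 2-fold lower and 0 higher, with a median of -0.68. The share lower was close to the 11.9% of all genes, of which 10.4% were higher. B2m, the light chain of MHC class I, was at 1340.1 CPM in Eed iKO-D Tregs and 2229.5 CPM in Ctrl-D Tregs (ratio 0.601, 0.541 to 0.667). H2-D1 was at 1521 and 2914 CPM, and the 2 genes past the bound were Psmb9, an immunoproteasome subunit (58.4 and 232 CPM), and H2-T22 (26.3 and 101 CPM). Other T cells showed the same order: B2m was at 1020.3 and 2149.7 CPM in strict Foxp3-negative CD4 T cells and at 1177 and 2245 CPM in strict CD8 T cells.

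Over genes measured in all 3 strict classes the interferon medians were -0.89 in Tregs, -0.53 in Foxp3-negative CD4 and -0.70 in CD8 T cells (12 genes), and the MHC class I medians -0.63, -0.95 and -0.82 (15 genes). Both medians were below 0 in each of the 3 classes of T cell. The order was not particular to T cells. MHC class I genes summed to 1177 CPM in Eed iKO-D and 4428 CPM in Ctrl-D keratinocytes, and interferon genes to 431 and 799 CPM. In fibroblasts the sums were 1246 and 3051 CPM, and 1202 and 2661 CPM. Macrophages had 3714 and 6468 CPM, and 2244 and 2719 CPM. Neutrophils had 1518 and 4453 CPM, and 1104 and 1850 CPM.

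Many cell cycle genes were lower in Eed iKO-D Tregs as well. Of 35 measured, 19 were at least 2-fold lower and 1, the replication factor gene Mcm2, higher, with a median of -1.18. Of all genes 11.9% were lower and 10.4% higher. Several genes of mitosis were far below: Ube2c was at 14.6 CPM in Eed iKO-D and 134 CPM in Ctrl-D, Birc5, or survivin, at 20.4 and 118 CPM, and Stmn1, which frees tubulin, at 67.1 and 280.3 CPM. Top2a, the topoisomerase of dividing cells, was at 111 and 228 CPM. Genes of DNA replication lay on both sides: beside Mcm2, the helicase genes Mcm3, Mcm4, Mcm5, Mcm6 and Mcm7 had ratios of 1.06, 1.07, 0.991, 1.17 and 1.2, and the sliding clamp gene Pcna 0.988. The nucleotide synthesis genes Rrm1, Rrm2 and Tyms had ratios of 0.530, 0.415 and 0.642, and the clamp-binding gene Pclaf 0.352.

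Counted by cell, the libraries overlapped. Mki67, a marker of dividing cells, was detected in 2 of 34 Eed iKO-D Tregs thinned to 1000 UMIs (5.88%, Clopper-Pearson interval 0.720% to 19.7%) and 9 of 113 Ctrl-D Tregs (7.96%, 3.71% to 14.6%), and Top2a in 2 of 34 (5.88%) and 11 of 113 (9.73%). Without thinning either gene was found in 17 of 34 (50%) and 45 of 115 (39.1%). The 27 cell cycle genes measured in all 3 strict classes had medians of -0.83 in Tregs, 0.19 in Foxp3-negative CD4 and -0.86 in CD8 T cells. In most of these genes a few cells held the UMIs: Ube2c was detected in 4 and 11 cells and Stmn1 in 5 and 26.

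**Figure D5:**
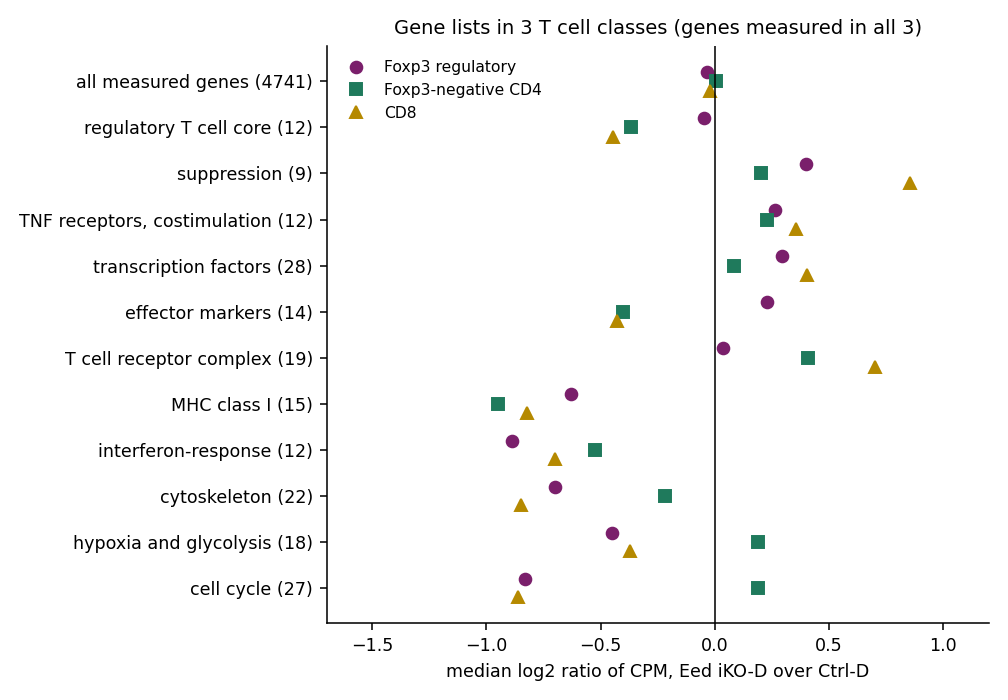
Median log2 ratio of CPM, Eed iKO-D over Ctrl-D, for gene lists in strict Tregs, Foxp3-negative CD4 and CD8 T cells, over the genes measured in all 3 classes (their number stands beside each list). MHC class I medians lie left of 0 in all 3 classes, while the cell cycle median is -0.83 in Tregs, 0.19 in Foxp3-negative CD4 and -0.86 in CD8 T cells.

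Of 22 genes of the cytoskeleton and of migration 6 were at least 2-fold lower in Eed iKO-D and 1 higher, with a median of -0.73. Of all genes 11.9% were lower and 10.4% higher. Crip1, a small LIM-domain protein gene, was at 546 CPM in Eed iKO-D Tregs and 1959 CPM in Ctrl-D Tregs (ratio 0.279, 0.238 to 0.325), S100a6, a calcium-binding protein gene, at 1369 and 3856 CPM, and Vim, the intermediate filament vimentin, at 1168 and 2534 CPM. In strict Foxp3-negative CD4 T cells Vim was at 1402 and 1571 CPM and S100a6 at 2545 and 2759.8 CPM, and in strict CD8 T cells Vim was at 1274 and 2432 CPM. The higher gene was Cd44, the hyaluronan receptor of activated T cells, at 949 and 407 CPM (2.33-fold, 1.98 to 2.74). The shared medians of the list were -0.70 in Tregs, -0.22 in Foxp3-negative CD4 and -0.85 in CD8 T cells.

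Metabolic and survival genes differed in both directions, where 10.4% of all genes were higher and 11.9% lower. Of 18 lipid and mitochondrial genes 3 were higher and 5 lower, among the lower ones the respiratory chain genes Uqcrh (295 CPM in Eed iKO-D, 797 CPM in Ctrl-D), Ndufa4 and Cox5a, which in strict CD8 T cells were lower too, with log2 ratios of -1.04, -1.48 and -2.41. Fabp5, a fatty acid carrier, was 2.61-fold higher, with 42.4% of its Eed iKO-D UMIs in 1 cell. Slc7a1, an arginine transporter, was at 155 and 71.8 CPM (2.15-fold, 1.44 to 3.23). Of 16 apoptosis genes 1 was higher, Bcl2l1, which encodes the survival factor BCL-XL (204 and 94.4 CPM), and 1 lower, Bcl2l11, which encodes the death factor BIM (26.3 and 74.6 CPM). Bcl2l11 was detected in 4 of 34 and 33 of 115 Tregs and ran the other way in strict CD8 T cells, at 331 and 127 CPM.

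T cell receptor, activation and interleukin 2 pathway genes had medians close to that of all genes. Smaller shares of them were past 2-fold than the 10.4% higher and 11.9% lower of all genes. Of 20 receptor and signalling genes 0 were 2-fold higher and 1 lower in Eed iKO-D (median -0.01), of 25 activation genes 2 were higher and 1 lower (0.08), and of 14 interleukin 2 pathway genes 1, Stat5a, was higher and 0 lower (0.04). The kinase gene Lck was at 178 CPM in Eed iKO-D Tregs and 103 CPM in Ctrl-D Tregs, and the transducer Nfkb1 at 1025 and 577 CPM. Nr4a1, an immediate response to receptor signals, was at 146 and 146 CPM. Of 20 hypoxia and glycolysis genes 1 was higher and 1 lower (median -0.44). Effector cytokines were sparse: Il17f had UMIs in 1 Ctrl-D Treg and in no Eed iKO-D Treg, and all Ifng UMIs of Eed iKO-D were in 1 cell.

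The genes with the most extreme ratios were, for the most part, those of single barcodes or of the whole library. Of the 12 highest, Rgs5, Prkg1, Gzma, Il6, Akap12 and Cacna2d1 had between 90.5% and 100% of their Eed iKO-D UMIs in 1 Treg barcode each, and Krt6b, a keratin, had 56.7%. With the gene's leading barcode left out in each library, Gzma was at 0 CPM in Eed iKO-D and 0 CPM in Ctrl-D and Rgs5 at 13.0 and 0 CPM. Camk1d, Cdk8 and Cmss1 were found in all 34 Eed iKO-D Tregs, but Camk1d was at 10694 CPM there and at 7558 CPM in keratinocytes of the same library, against 383 and 311 CPM in Ctrl-D. All 3 were higher in Eed iKO-D also in each of the T cell, keratinocyte, fibroblast, macrophage and neutrophil classes.

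Of the 12 lowest, Cck had 99.5% of its Ctrl-D UMIs in 1 Treg barcode. Krt15, Cxcl14, Ptn and Ifitm3 were found in 10, 10, 9 and 42 of 115 Ctrl-D Tregs, and in Ctrl-D keratinocytes at 654, 336, 195 and 1164 CPM. Ctrl-D fibroblasts had more Cxcl14 (693 CPM) and Ifitm3 (1970 CPM). Ifitm3 was also at 865 CPM in Foxp3-negative CD4 T cells of Ctrl-D. The metallothionein genes Mt1 and Mt2, which bind zinc and copper, were at 155 CPM in Eed iKO-D and 721 CPM in Ctrl-D, and at 73.0 and 404 CPM. Ube2c and Ifi27l2a, described above, and Hist1h2ap and Ppp1r14c were also among the 12.

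Both libraries held Tregs with Xist and no Y-linked UMI (11 in Eed iKO-D, 46 in Ctrl-D) and Tregs with a Y-linked and no Xist UMI (15 and 24), and the comparison was made within each. Ikzf2 had a log2 ratio of 0.91 in the first kind and 0.77 in the second, and B2m of -0.53 and -0.68. Ifi27l2a had -2.44 and -0.76, Gzmb -1.26 and -0.39, and Crip1 -1.85 and -1.39. These 5 kept their sign in both kinds of cell. Il2ra had 0.80 and 0.07, and Itgb8 0.20 and 1.46, each close to 0 in one of the kinds, and Klrg1 3.62 and -0.74, opposite in sign. The cell cycle list had medians of -0.88 (24 genes) and -2.21 (16 genes), while the interferon list was at -0.28 (17 genes) and -0.31 (8 genes).

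Activated and resting genes were scored per cell after thinning to 1000 UMIs, which left out 0 Eed iKO-D and 2 Ctrl-D Tregs. A Treg had a median of 6 of 20 effector genes in Eed iKO-D (1 to 10) and 6 in Ctrl-D (1 to 12), against 2 and 3 in Foxp3-negative CD4 T cells and 0 and 0 in keratinocytes. Of 15 resting genes the medians were 1 in Eed iKO-D and 2 in Ctrl-D. Most Tregs carried both, with at least 2 effector genes and at least 1 resting gene in 26 of 34 (76.5%) and 99 of 113 (87.6%). Tregs with effector genes and no resting gene were 7 of 34 in Eed iKO-D (20.6%, Clopper-Pearson interval 8.70% to 37.9%) and 9 of 113 in Ctrl-D (7.96%, 3.71% to 14.6%). The intervals overlapped, and among Tregs with at most 1% keratinocyte-list UMIs the shares were 6.90% and 6.80%.

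Single markers of these states were mixed within cells. Gzmb and the lymph node receptor gene Ccr7 were found in the same cell in 6 of 34 Eed iKO-D and 31 of 115 Ctrl-D Tregs, Gzmb alone in 8 and 37, and Ccr7 alone in 5 and 18. Gzmb and Klrg1 were together in 7 and 22 cells, with Gzmb alone in 7 and 46 and Klrg1 alone in 10 and 8. Klrg1 without Gzmb was thus found in 10 of 17 Klrg1-positive Tregs in Eed iKO-D and 8 of 30 in Ctrl-D.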

How the data were processed

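The deposited matrices, 1 per library, hold raw UMI counts of 32285 genes in every barcode the authors called a cell, from dissociated tumours sequenced with a droplet 3' kit (version 2, per the labels). Cell Ranger, which aligns reads and counts UMIs, is 2.1.0 per the labels' protocols, 8.0 per the submitters' processing notes, which give mm10, and 7.1.0 per the file headers. Whether introns were counted is not given in the sources used here.

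The members and the gene lists were chosen with earlier results of these data known. UMIs were summed per class and library and scaled to CPM, and ratios carry exact conditional binomial intervals, shares exact Clopper-Pearson intervals, covering counting error only. A gene needed 20 UMIs, log2 ratios added 0.5 UMI to each count, and a call meant 2-fold. With 1 library per group no p-value was computed. Comparison classes were set by transcripts: CD8 (a Cd8 UMI), gamma-delta (Trdc) and Foxp3-negative CD4 (Cd4). Keratinocytes needed 20 Krt5 and Krt14 UMIs without CD3 or Ptprc. The free RNA limit required 3 times the Treg CPM to reach the highest CPM of the keratinocyte, fibroblast, macrophage and neutrophil classes.

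Named were the gate genes and markers, list members with 20 UMIs, the 12 highest and 12 lowest genes of Eed iKO-D over Ctrl-D, and the 15 highest and 8 lowest of Tregs over Foxp3-negative CD4 T cells, ranked on CPM plus 20, at 100 CPM or more and within the free RNA limit. Some genes so named are not reported here. No doublet caller was used. Barcodes of 2 cell types were counted, and left out as an alternative. Coordinates came from GENCODE vM21, in which 556 of 558 gene IDs looked up were found. Python 3.11.15, numpy 2.4.6, scipy 1.17.1, pandas 2.3.3 and matplotlib 3.10.9 were used. The 2-fold call was tested on simulated data, where it recovered 192 of 194 genes set 4-fold apart between the libraries' Tregs and called 250 of 6477 unchanged genes (3.86%). The simulated sums held counting error alone. Differences between cells, such as UMIs gathered in 1 barcode, were not simulated, so 3.86% is not the rate of such calls in these data.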

Additional observations from a re-analysis of the deposited data

Results flagged for a closer look

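Barcodes with Cd3e and no Cd3d or Cd3g UMI made up 73.9% of CD3 barcodes in Eed iKO-D (420 of 568) and 21.3% in Ctrl-D (128 of 600), a signal outside the T cell classes compared. Of the 34 and 115 Tregs, 1 and 0 were of this kind.

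In Ctrl-D 22 CD3 barcodes carried both Foxp3 and Cd8 UMIs, 10 of them with a single Cd8 UMI, against 0 in Eed iKO-D. The membership rule left them out.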

How the results depend on the processing

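Levels were recomputed under 16 settings for 127 genes named in the text. Some settings could hardly move a ratio. The limits of 200 genes, 10% mitochondrial UMIs and the 95th percentile of UMIs kept the same 34 and 115 Tregs. Centring on the median, and totals without ribosomal and similar UMIs, shifted every ratio by the same small amount. Of the 2001 log2 ratios of Eed iKO-D over Ctrl-D, 1813 stayed within their counting interval and 184 moved out of it. The 1813 include the ratios of those settings and do not measure stability. A further 4 ratios that were past 2-fold changed sign. These were those of Id3, at 0.45 with at least 1 CD3 UMI required, 0.11 in Tregs with at most 1% keratinocyte-list UMIs and 0.14 with barcodes of 2 cell types left out, and of Parp8, at 2.63 with at least 1 CD3 UMI. The 2-fold counts of Eed iKO-D over Ctrl-D, 692 higher and 796 lower, were 1216 higher at 10 UMIs per gene, 274 higher and 422 lower at 50 UMIs, and 1502 higher and 1637 lower at 1.5-fold. They were 236 and 385 in Tregs with a Y-linked and no Xist UMI, where fewer genes reached 20 UMIs, against 781 and 944 in those with Xist alone. With each gene's leading barcode left out in both libraries they were 549 and 1107. That removes a larger part of 34 Eed iKO-D Tregs than of 115 Ctrl-D Tregs, so ratios tend to fall by construction. Genes higher in Tregs than in Foxp3-negative CD4 T cells, 126, were 52 at 50 UMIs and 375 at 1.5-fold. Genes lower there, 92, were 169 at 10 UMIs, 39 at 50 UMIs, 259 at 1.5-fold, 181 with the keratinocyte list at most 1% and 187 with barcodes of 2 cell types left out. These last 2 filters were applied to Tregs alone, and the Foxp3-negative CD4 T cells stayed at 46 and 61.

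The Treg share of CD3 cells was 3.72% in Eed iKO-D with at least 1 CD3 UMI, and in Ctrl-D 10.2% with at least 2 Foxp3 UMIs and 8.83% with Cd4 required. It was 24.2% in Eed iKO-D and 25.2% in Ctrl-D with Ptprc and Cd3d or Cd3g required. Tregs with effector and no resting genes were 6.90% in Eed iKO-D at most 1% keratinocyte list, and 3.19% in Ctrl-D thinned to 2000 UMIs. With the profile of low-UMI barcodes subtracted from Eed iKO-D the median of all genes became 0.17, and list medians were -0.64 for interferon, -0.42 for MHC class I, -1.16 for cell cycle, 0.42 for core Treg, 0.51 for transcription factor, 0.60 for TNF receptor and 0.38 for homing genes, with 5 in place of 1 hypoxia genes lower. That subtraction, the Ptprc and CD3 requirement, the 2-cell-type filter, the Xist and Y-linked strata and the leading-barcode setting were chosen after seeing the data. No paired analysis was possible because each group is 1 library. With 34 Eed iKO-D Tregs, depth limits thinly counted genes most, and counting error does not cover differences between animals.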

Other observations

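Ligands of receptors described on Tregs were measured in the other cells of the tumours. Il33, the ligand of Il1rl1, was at 196 CPM in fibroblasts of Eed iKO-D and 147 CPM in those of Ctrl-D, and at 57.7 and 49.3 CPM in keratinocytes. Cxcl16, the ligand of Cxcr6, was at 417 CPM in Eed iKO-D macrophages and 681 CPM in Ctrl-D macrophages (42 cells). Cd86, a ligand that Ctla4 binds, was at 897 and 712 CPM in macrophages, and Cd80 at 53.5 CPM in Eed iKO-D keratinocytes and 1.39 CPM in Ctrl-D keratinocytes. The Ccr4 ligands Ccl17 and Ccl22 were at 13.1 and 3.95 CPM in macrophages of Eed iKO-D and at 15.4 and 43.5 CPM in those of Ctrl-D, where they rest on 6 and 17 UMIs. Tgfb2, a TGF-beta isoform, was at 359 and 124 CPM in fibroblasts.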
